A study of Danio rerio with 20 samples.

Results

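Mitochondrial matrix chaperones and proteases are nuclear-encoded proteins that fold the proteins inside mitochondria and break down those that cannot be folded. They were taken as every row of the counts table whose Ensembl symbol, ignoring case and with or without a paralogue letter, was HSPD1, HSPE1, HSPA9, TRAP1, LONP1, CLPP, CLPX, GRPEL1 or DNAJA3. These 9 symbols gave 11 gene identifiers of the 32105 in the table, and all 11 passed the filter on low counts that kept 17025 genes for testing. CLPX was the symbol of 2 identifiers (ENSDARG00000029063 and ENSDARG00000067796), and DNAJA3 was found as DNAJA3 (ENSDARG00000058494) and dnaja3b (ENSDARG00000102295). The choice of the group followed 2 values of these data: HSPD1 and HSPA9 were called lower after the swim tunnel at 3 years. That comparison, and the interaction of age and swim tunnel built from it, are therefore given as descriptions only. Their calls are listed, but nothing is read from how many members were called.

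Most matrix proteins are made in the cytosol and enter the mitochondrion unfolded. HSPA9, the mitochondrial HSP70, pulls them in and binds them with the help of the nucleotide exchange factor GRPEL1 and DNAJA3, a J-domain partner. HSPD1 (HSP60) and its lid HSPE1 (HSP10) form a barrel in which they fold. LONP1 and the pair CLPX and CLPP, an unfoldase and the peptidase it feeds, degrade damaged or surplus proteins, and TRAP1 is the mitochondrial HSP90. In worms and mammals the genes for several of these proteins are induced together when proteins misfold in the matrix, and the mitochondria of skeletal muscle respond to training.

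RNA was sequenced from muscle of male zebrafish of the strain AB JxTu in 20 libraries, 5 in each of 4 groups, to compare 2 ages after physical exercise. The groups were 3-year fish with the perturbation swim-tunnel (3y_swim), 3-year fish with the perturbation none (3y_control), 1-year fish with the perturbation swim-tunnel (1y_swim) and 1-year fish with the perturbation none (1y_control). The labels do not give the length or intensity of swimming, the time to sampling, the part of the body or whether each library came from a separate fish, and no group carried a genetic change in the labels. p-values therefore measure the spread between these libraries, which may be in part technical.

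The libraries held 31550213 to 48920974 counts, and single members 159 to 10158 counts per library. The members took 0.0268% ± 0.00347 of the counts in 3y_swim, 0.0411% ± 0.00331 in 3y_control, 0.0457% ± 0.00759 in 1y_swim and 0.0485% ± 0.00297 in 1y_control (mean ± SD, n = 5 each). Markers of fast muscle fibres summed to group means of 143000 to 206000 CPM (counts scaled to library size), muscle being the tissue in the labels. Markers of skin, pancreas and leukocytes were also present, and their sums are given beside the results they touch. Nerve and glia markers summed to 315 to 839 CPM and erythrocyte markers to 47.2 to 241 CPM over the 20 libraries. In bulk muscle, fewer cells of a type and less RNA per cell cannot be told apart.

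Compared per transcript length in RPKM, which divides the scaled counts by the length of the gene, HSPA9 (ENSDARG00000003035) had the highest level of the members. It averaged 36.3 RPKM over the 20 libraries and stood at percentile 95.5 of all genes tested. HSPE1 (ENSDARG00000056167) averaged 19.1 RPKM, CLPX (ENSDARG00000029063) 14.8 RPKM, HSPD1 (ENSDARG00000056160) 12.5 RPKM and CLPP (ENSDARG00000020679) 10.2 RPKM. The other members lay between 8.22 RPKM for CLPX (ENSDARG00000067796) and 4.89 RPKM for LONP1 (ENSDARG00000102765), which was at percentile 77.8. TRAP1 (ENSDARG00000024317), DNAJA3 and GRPEL1 (ENSDARG00000010021) fell between these at 7.72, 7.65 and 7.19 RPKM, and dnaja3b at 5.35 RPKM.

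HSPA9 stayed first in every group, with 20.5 ± 2.39 RPKM in 3y_swim, 32.6 ± 5.13 RPKM in 3y_control, 50.1 ± 2.12 RPKM in 1y_swim and 42.0 ± 5.42 RPKM in 1y_control (mean ± SD, n = 5 each). The order behind it was not the same in all groups. CLPX (ENSDARG00000029063) and HSPE1 were 13.3 ± 1.31 and 11.9 ± 1.33 RPKM in 3y_swim, apart by about 1 SD, whereas in 1y_swim they were 17.9 ± 1.81 and 26.8 ± 6.03 RPKM. HSPD1 and CLPP were level in 3y_swim, at 7.76 ± 0.672 and 7.63 ± 1.28 RPKM, and further apart in 1y_swim, at 17.0 ± 1.89 and 12.9 ± 2.59 RPKM.

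The age difference among fish that had swum was the comparison with the most calls. With edgeR's quasi-likelihood test and Benjamini-Hochberg adjustment over all genes tested, 10 of 11 members fell in 3y_swim relative to 1y_swim and none rose, while 10.1% of all genes tested were called lower. The median log2 change of the 11 members was -1.01, beside 0.04 over all genes tested. With library totals as the scaling 7 members fell (median -0.78), while the median over all genes moved to 0.29. Under that scaling 3816 of all genes were called in either direction, against 3010 with TMM factors. In 9 of 11 members the 5 libraries of 3y_swim all lay below the 5 of 1y_swim, as did 7.44% of all genes tested. This comparison shares the 3y_swim libraries with the one in which HSPD1 and HSPA9 were singled out, so the lower HSPD1 and HSPA9 in it are not independent of how the group was chosen. The same can hold in part for members correlated with HSPA9 over the 20 libraries, such as TRAP1 (r = 0.94) and GRPEL1 (r = 0.91).

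**Figure D1:**
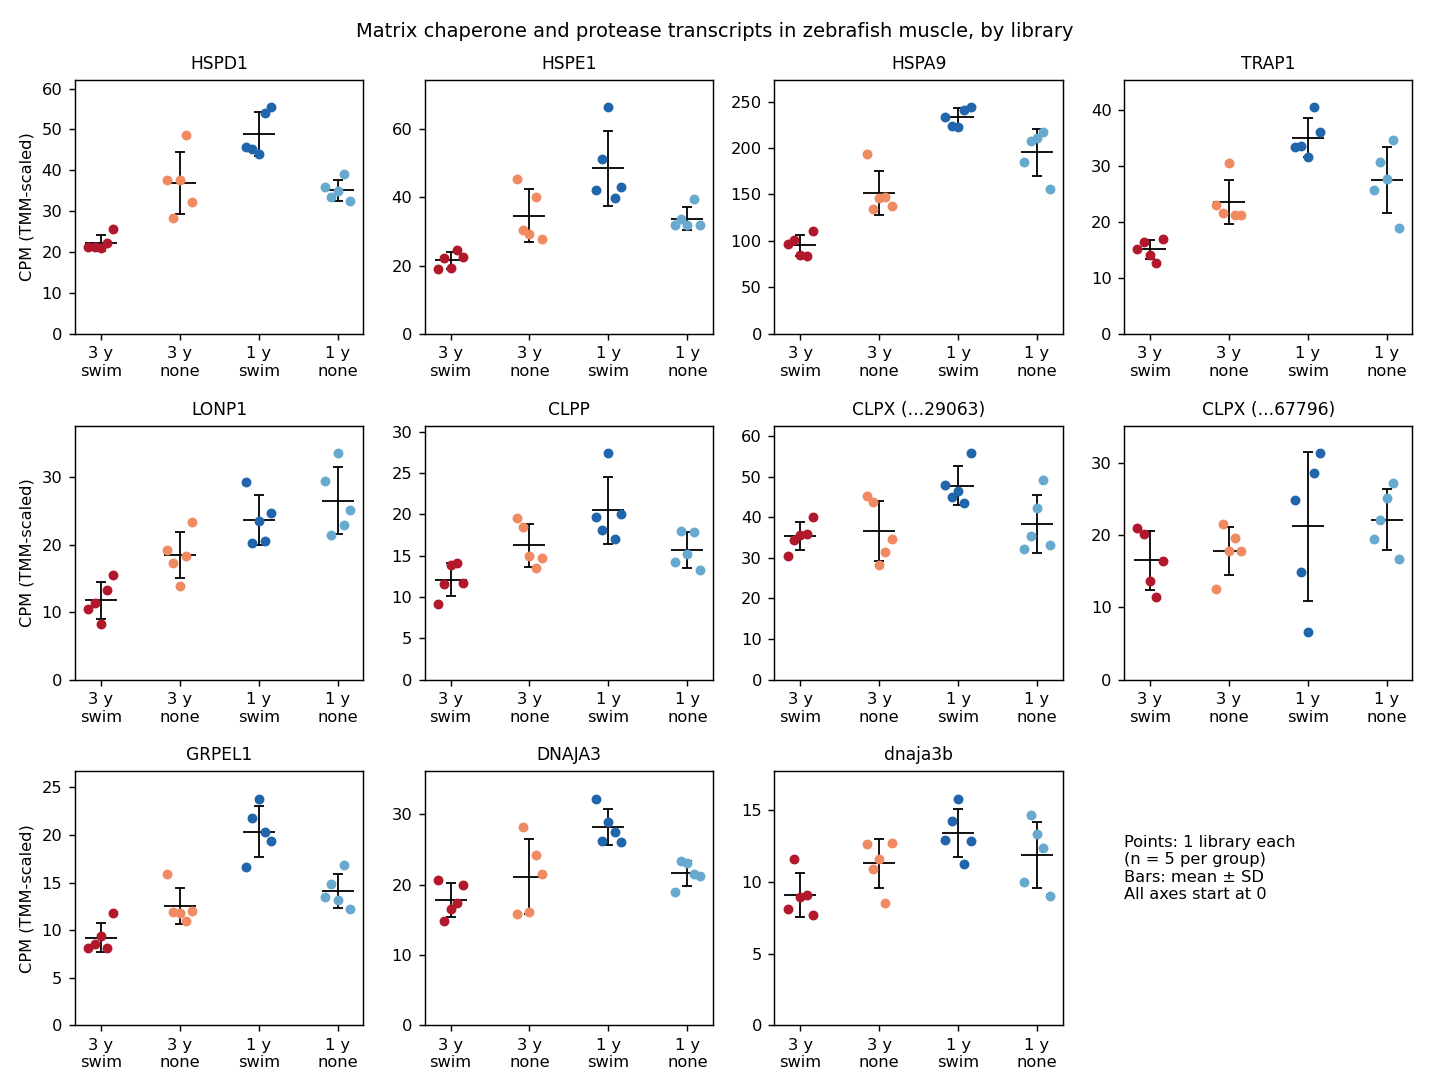
Level of each of the 11 members in CPM (vertical axes, from 0, scaled with TMM factors) in the 3-year swim-tunnel, 3-year untreated (none), 1-year swim-tunnel and 1-year untreated groups from left to right; each point is 1 library, and bars show mean ± SD of 5 libraries. HSPA9 lies between 83.7 and 110 CPM in all 3-year swim-tunnel libraries and between 222 and 244 CPM in all 1-year swim-tunnel libraries, and the untreated groups lie between these.

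Transcripts of both parts of the folding chamber fell. HSPD1 measured 21.1, 21.4, 21.1, 22.3 and 25.6 CPM in the 3y_swim libraries, against 45.7, 45.1, 44.0, 54.0 and 55.5 CPM in the 1y_swim libraries. Its highest 3y_swim library was thus well under its lowest 1y_swim library, and it fell by 1.13 ± 0.13 (SE) on the log2 scale (adjusted p = 7.59e-05). HSPE1, its lid, measured 19.0, 22.3, 19.1, 24.6 and 22.4 CPM in 3y_swim, against 42.1, 51.1, 66.5, 39.9 and 42.9 CPM in 1y_swim. Those groups did not overlap either, although the 1y_swim libraries were spread more widely, and HSPE1 fell by 1.17 ± 0.16 (adjusted p = 0.000185). In the RefSeq gene table hspd1 and hspe1 are neighbours, and in mammals they are a head-to-head pair with a shared promoter.

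HSPA9 had the smallest p of all 17025 genes in this comparison. It was singled out for low values in the same 3y_swim libraries, so this rank is not independent of the choice. It measured 96.8, 101, 85.3, 83.7 and 110 CPM in 3y_swim, against 234, 224, 222, 241 and 244 CPM in 1y_swim, 2 narrow and separate ranges. The log2 change was -1.29 ± 0.13 (adjusted p = 3.49e-05). GRPEL1, which resets HSPA9 between cycles, measured 8.16, 8.54, 9.36, 8.17 and 11.8 CPM in 3y_swim, against 16.6, 21.7, 23.8, 20.3 and 19.3 CPM in 1y_swim. It fell by 1.15 ± 0.14 (adjusted p = 8.96e-05), again with no overlap.

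The J-domain partners of HSPA9 fell by less. DNAJA3 ranged over 14.8 to 20.6 CPM in 3y_swim and over 26.03 to 32.2 CPM in 1y_swim, without overlap, with a log2 change of -0.66 ± 0.15 (adjusted p = 0.00504). The paralogue dnaja3b ranged over 7.67 to 11.6 CPM in 3y_swim and over 11.3 to 15.8 CPM in 1y_swim, where the highest 3y_swim library passed the lowest 1y_swim library, and it fell by 0.56 ± 0.15 (adjusted p = 0.0167).

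TRAP1 fell by about as much as the main chaperones. It measured 15.2, 16.5, 14.1, 12.7 and 16.8 CPM in 3y_swim, against 33.3, 33.6, 31.6, 40.5 and 36.0 CPM in 1y_swim, and fell by 1.22 ± 0.15 on the log2 scale (adjusted p = 0.000102).

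Among the proteases the size of the difference varied. LONP1, an ATP-driven protease that also binds mitochondrial DNA, measured 10.4, 11.4, 8.22, 13.3 and 15.5 CPM in 3y_swim, against 29.3, 20.3, 23.6, 20.6 and 24.8 CPM in 1y_swim, and fell by 1.01 ± 0.18 (adjusted p = 0.000934). CLPP, the peptidase, measured 9.21, 11.5, 13.9, 14.2 and 11.7 CPM in 3y_swim, against 19.7, 18.1, 27.4, 17.0 and 20.1 CPM in 1y_swim, and fell by 0.76 ± 0.15 (adjusted p = 0.00287). Neither protease overlapped between the groups. CLPX (ENSDARG00000029063) ranged over 30.4 to 40.1 CPM in 3y_swim and over 43.5 to 55.9 CPM in 1y_swim, and fell by 0.44 ± 0.15 (adjusted p = 0.0438). That call was near the threshold: in 10 of 20 fits that each left out 1 library its adjusted p passed 0.05, with 0.110 as the highest and log2 changes of -0.49 to -0.38. The libraries whose removal did so were 3y_swim 1, 2, 3 and 4, 3y_control 5, 1y_swim 1, 2, 3 and 5, and 1y_control 5.

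CLPX (ENSDARG00000067796) was the member that was not called, at -0.37 ± 0.30 (adjusted p = 0.424). Its 3y_swim libraries measured 21.0, 20.1, 13.6, 11.4 and 16.4 CPM, against 24.8, 15.0, 6.53, 28.6 and 31.4 CPM in 1y_swim. The 1y_swim group alone spanned the whole range of the 20 libraries, and its library 3, at 159 counts, was the lowest value of any member. The 2 CLPX identifiers are paralogues, and how reads that match several genes were counted is not given in the sources used here, so the split of counts between them is uncertain; the same holds for DNAJA3 and dnaja3b.

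Among fish that had not swum, none of the 11 members was called in 3y_control relative to 1y_control by edgeR's quasi-likelihood test, where 1.19% of all genes tested were called in either direction; 2 of 11 members had an unadjusted p below 0.05, as did 15.9% of all genes. The median log2 change of the members was -0.07, beside 0.01 over all genes. These 3y_control libraries are also part of the comparison that led to the choice of the group. DESeq2's Wald test called 1 member lower, HSPA9, and 720 of all genes in either direction, where edgeR's test called 203.

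HSPD1 measured 37.7, 28.4, 37.7, 48.6 and 32.2 CPM in 3y_control, against 35.8, 33.5, 34.9, 39.2 and 32.5 CPM in 1y_control. The 3-year libraries surrounded the 1-year ones, and the log2 change was 0.07 ± 0.13 with a 95% interval of -0.19 to 0.34. HSPE1 measured 45.4, 30.3, 29.3, 40.0 and 27.7 CPM in 3y_control, against 31.9, 33.6, 31.9, 39.5 and 31.7 CPM in 1y_control, with a log2 change of 0.03 and an interval of -0.29 to 0.36. Both intervals lay above the log2 changes of -1.13 (HSPD1) and -1.17 (HSPE1) among fish that swam. HSPD1 was singled out for 3y_swim values below 3y_control values. The 2 age differences are therefore set side by side as a description, and no fall is excluded from them.

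The lowest values without swimming belonged to LONP1 and HSPA9. LONP1 measured 19.2, 17.3, 13.9, 18.3 and 23.4 CPM in 3y_control, against 29.5, 21.4, 33.6, 22.9 and 25.2 CPM in 1y_control, with a log2 change of -0.53 ± 0.17 (adjusted p = 0.145). HSPA9 measured 193, 135, 146, 148 and 138 CPM in 3y_control, against 185, 208, 210, 218 and 156 CPM in 1y_control, with a log2 change of -0.36 ± 0.12 (adjusted p = 0.157). In both genes 1 or more libraries overlapped, and 3y_control 1 was the HSPA9 library that reached into the 1-year range. Without that library HSPA9 was called, with an adjusted p of 0.0462 and a log2 change of -0.47. The other 7 members lay between -0.31 and 0.05.

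**Figure D2:**
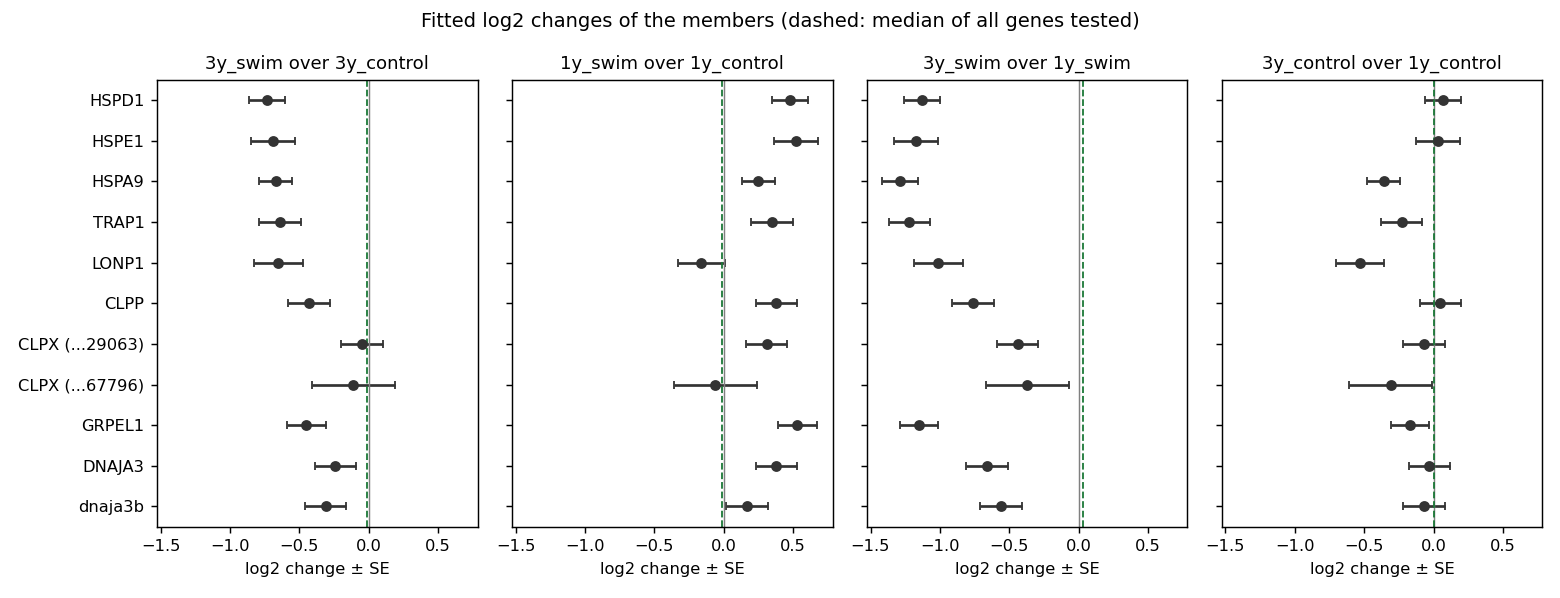
Fitted log2 change of each member (points) ± SE (bars), with no change as a grey line and the median of all 17025 genes tested as a dashed line, for swim tunnel over control at 3 years and at 1 year and for 3 years over 1 year with and without the swim tunnel. The 11 members run from -1.29 to -0.37 for the ages with the swim tunnel and from -0.53 to 0.07 without it; the panel for the swim tunnel at 3 years is a description, since it led to the choice of the group.

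The swim tunnel at 1 year is the comparison that shares no library with the one that led to the group. Its estimate of spread and its TMM factors still came from the fit of all 20 libraries. None of the 11 members was called by edgeR's quasi-likelihood test, where 0.793% of all genes tested were called higher and 1.14% in either direction. The members nevertheless had mostly higher values after swimming: 9 of 11 log2 changes were positive, with a median of 0.35 beside -0.01 over all genes. This was not particular to them. Lists of other mitochondrial genes, described below, had medians of 0.23 to 0.48, and cytosolic and endoplasmic reticulum chaperones 0.22. With library totals those mitochondrial lists had medians of -0.18 to 0.09. An unadjusted p below 0.05 was reached by 7 of 11 members and by 19.2% of all genes tested, and in 4 members the 5 swim-tunnel libraries all lay above the 5 control libraries, as did 2.41% of all genes. DESeq2's Wald test called 3 members higher, HSPD1, HSPE1 and GRPEL1. It called 901 of all genes in either direction, where edgeR's test called 194. In an edgeR fit of only the libraries compared, 0 members and 3 of all genes were called (member median 0.3, all genes -0.05).

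GRPEL1 came nearest to a call. Its 1y_swim libraries, given above, ran from 16.6 to 23.8 CPM, against 13.5, 14.8, 13.2, 16.9 and 12.2 CPM in 1y_control, so that a single pair of libraries crossed. The log2 change was 0.53 ± 0.14 (adjusted p = 0.0585), and its adjusted p ranged from 0.0356 to 0.161 when 1 library was left out, below 0.05 without 1y_swim 1, 1y_control 4, 3y_control 1 or 3y_swim 5. HSPD1 averaged 48.9 ± 5.44 CPM in 1y_swim and 35.2 ± 2.59 CPM in 1y_control (SD, n = 5 each), without overlap, with a log2 change of 0.48 ± 0.13 (adjusted p = 0.0653, and 0.0495 without 3y_control 4).

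The TMM factors behind these values were 0.845 ± 0.121 in 1y_swim and 1.11 ± 0.0864 in 1y_control. HSPE1 averaged 48.5 ± 10.9 CPM in 1y_swim and 33.7 ± 3.32 CPM in 1y_control, where every swim-tunnel library exceeded every control library. Its log2 change was 0.52 ± 0.16 (adjusted p = 0.0925). HSPA9, at 0.25, and TRAP1, at 0.35, had smaller changes in the same direction. LONP1, at -0.16, and CLPX (ENSDARG00000067796), at -0.06, were the members with a negative sign. These signs depend on the scaling: scaled by their totals alone, without TMM factors, the libraries gave a median of -0.40 over all genes and of -0.02 over the members, so relative to all genes the members stayed higher, but HSPA9, TRAP1, CLPP, CLPX (ENSDARG00000029063) and dnaja3b took a negative sign and LONP1 was called lower.

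At 3 years the swim tunnel went with lower values, and this is the difference that the group was chosen from. All 11 log2 changes were negative, with a median of -0.45 beside -0.01 over all genes, and 2 of 11 members, HSPD1 and HSPA9, were called lower, where 0.0235% of all genes were; these calls are the choice itself, and nothing is read from their number. HSPD1 averaged 22.3 ± 1.93 CPM in 3y_swim and 36.9 ± 7.60 CPM in 3y_control, and HSPA9 averaged 95.4 ± 11.1 CPM in 3y_swim and 152 ± 23.9 CPM in 3y_control (SD, n = 5 each). Their log2 changes were -0.73 ± 0.13 and -0.67 ± 0.12. Of the members outside the call, HSPE1 stood at -0.69, LONP1 at -0.65 and TRAP1 at -0.64, about as far down as HSPA9, and the CLPX identifiers at -0.11 (ENSDARG00000067796) and -0.05 (ENSDARG00000029063). The 2 calls were lost or cut to 1 in every fit that left out 1 library other than 1y_swim 3 or 1y_control 5.

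With TMM factors the members' medians for the swim tunnel thus had opposite signs at the 2 ages. With library totals both were negative, at -0.02 at 1 year (all genes -0.40) and -0.55 at 3 years (all genes -0.11). The interaction, which holds the chosen contrast, had a median log2 value of -0.81 over the members and 0.01 over all genes, and 5 of 11 members were called lower, where 0.282% of all genes were; because the contrast led to the choice, nothing is read from that count. The 5 were HSPE1 (-1.21), HSPD1 (-1.20), TRAP1 (-0.99), GRPEL1 (-0.97) and HSPA9 (-0.93). The call of HSPD1 held in 19 of 20 fits that left out 1 library, that of HSPE1 in 10, HSPA9 in 7, GRPEL1 in 6 and TRAP1 in 2. DESeq2's Wald test called 6 members lower, and 407 of all genes in either direction, where edgeR's test called 57. No member was called with library totals (median -0.51, all genes 0.29) or without the libraries richest in skin or in nerve markers. The interaction was not particular to the members: lists of other mitochondrial genes, described below, had medians of -0.85 to -0.48.

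The genes around the members were described in the same way and by the same fit, by counts called in 3y_swim relative to 1y_swim with edgeR's quasi-likelihood test. Of 15 tested genes for the membrane proteases and their scaffolds, 11 fell and none rose (median log2 change -0.65). They included the ring-forming prohibitin PHB2, whose 2 identifiers fell by 1.33 ± 0.16 (ENSDARG00000017728, adjusted p = 8.96e-05) and 1.17 ± 0.14 (ENSDARG00000045297, adjusted p = 0.000102). The scaffold protein STOML2 fell by 0.97 ± 0.13, and afg3l1, a gene of the family of m-AAA protease subunits, fell by 1.29 ± 0.18. HTRA2 had 11 identifiers, of which 1 passed the filter and fell. With library totals 8 of the 15 fell (median -0.41, all genes 0.29).

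The enzymes that trim imported proteins were lower as well: 6 of 8 fell (median -0.71), among them PMPCA and PMPCB, the subunits of the main presequence peptidase (-0.61 ± 0.12 and -0.89 ± 0.16), MIPEP (-0.79 ± 0.12) and XPNPEP3 (-1.18 ± 0.19). Of 8 genes of the import motor and of co-chaperones of HSPA9, 5 fell (median -0.65). TIMM50, the receptor that guides preproteins through the inner membrane, averaged 8.12 CPM in 3y_swim and 18.1 CPM in 1y_swim and fell by 1.16 ± 0.12 (adjusted p = 3.49e-05). DNAJC15 fell by 0.95 ± 0.15, PAM16 by 0.72 ± 0.22 and TIMM44 by 0.57 ± 0.13. With library totals 4 of the 8 trimming enzymes (median -0.44) and 2 of the 8 motor genes (median -0.38) fell.

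Other mitochondrial genes were lower too. All 13 mitochondrially encoded mRNAs fell (median -0.92), led by MT-ND1 at -1.38 ± 0.17 (adjusted p = 0.000102). Of 23 tested genes of the citric acid cycle, carriers and outer membrane, 14 fell and 1 rose (median -0.68); IDH3A, a subunit of the matrix isocitrate dehydrogenase, fell by 1.16 ± 0.16 and TOMM40, the outer membrane channel, by 0.86 ± 0.11. The 1 that rose was VDAC1, at 0.95 (adjusted p = 0.0484). It was not called without the 3 libraries with the most skin markers, where calls over all genes dropped from 3010 to 1429. With library totals 10 of the 13 (median -0.65) and 10 of the 23 (median -0.42) fell. The members' median of -1.01 is set beside these medians as a description, and the difference between the lists was not tested.

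The chaperones outside mitochondria gave other counts. Of 23 tested cytosolic and endoplasmic reticulum chaperones, 2 fell and none rose (median -0.11), a share near the 10.1% of all genes called lower. With library totals 1 fell and 4 rose (median 0.15, all genes 0.29). The 2 that fell with TMM factors were hsp90aa1.1, a cytosolic HSP90 of muscle that assists myosin folding in zebrafish, at -1.37 ± 0.37 (adjusted p = 0.0162), and 1 HSPA4 identifier, at -0.75 ± 0.23 (adjusted p = 0.0311). Of 13 regulators of mitochondrial stress responses and biogenesis, 1 fell, where 10.1% of all genes were called lower. It was TFAM, the packaging factor of mitochondrial DNA, at -0.67 ± 0.17 (adjusted p = 0.0109). With library totals 1 of the 13 fell and 1 rose (median 0.12, all genes 0.29). The 2 atf5 genes, whose mammalian counterpart ATF5 drives the mitochondrial unfolded protein response, stood at 0.45 (atf5a) and -0.14 (atf5b) and were not called. Without the 3 libraries with the most skin markers (3y_swim 1, 3y_swim 3 and 1y_control 5), 0 of 23 outside chaperones and 0 of 13 regulators were called. Calls over all genes, in either direction, also dropped in that fit, from 3010 to 1429.

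**Figure D3:**
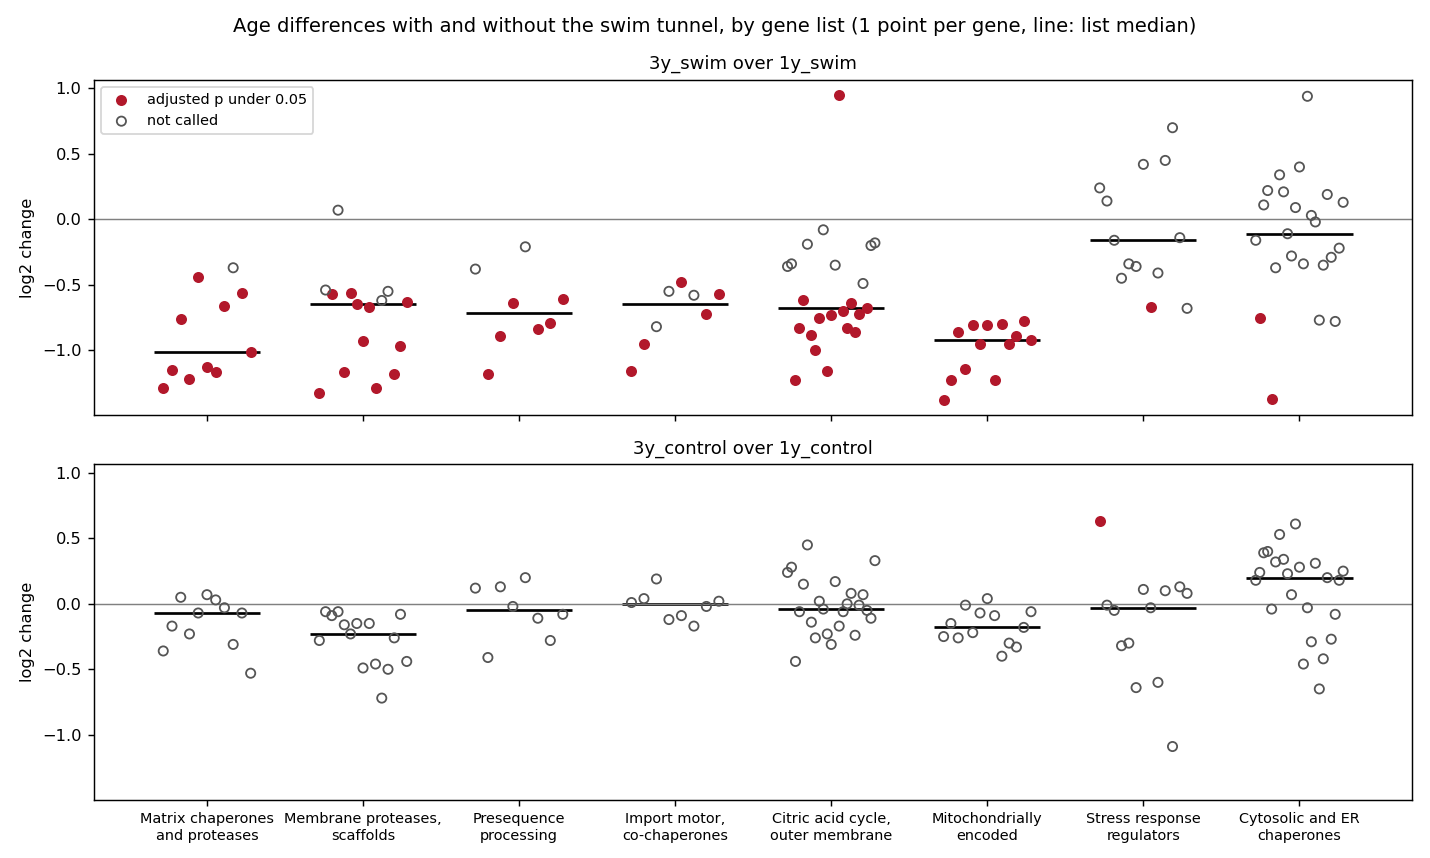
Log2 change of every tested gene of 8 lists (1 point per gene, filled where the adjusted p was below 0.05, with the list's median as a line) for 3 years over 1 year with the swim tunnel (upper panel) and without it (lower panel). With the swim tunnel the 5 mitochondrial lists to the right of the members have medians from -0.92 to -0.65 and the cytosolic and endoplasmic reticulum chaperones -0.11, whereas without it 1 gene in all 8 lists was called, NRF1.

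In resting fish, none of these genes was called with age except NRF1, a transcription factor of nuclear genes for mitochondrial proteins, which rose by 0.63 in 3y_control relative to 1y_control (adjusted p = 0.0177). The call of NRF1 was lost without the 3 libraries with the highest skin scores, where calls over all genes dropped from 203 to 115. After the swim tunnel at 1 year, TIMM50 rose by 0.61 ± 0.12 (adjusted p = 0.0185), a call lost with library totals, and TOMM20, an import receptor of the outer membrane, rose by 0.52 ± 0.13 (adjusted p = 0.0485; not called with RLE factors or library totals). At 3 years none of the genes of these lists was called with the swim tunnel, beside the 2 members. The interaction is again a description. In it 3 of 15 membrane proteases and scaffolds were called lower (STOML2 and both PHB2 identifiers), where 0.282% of all genes were. So were 2 of 8 motor genes, TIMM50 (-1.16) and DNAJC15 (-0.99), and 1 of 13 mitochondrially encoded genes, MT-ND1 (-1.13). With library totals no gene of these lists was called in the interaction.

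The members were correlated across all libraries and far less within groups. Over the 20 libraries the 55 pairs of members had a median Pearson r of 0.64 (-0.20 to 0.94, 52 positive). After the group means were removed the median was 0.15 (-0.63 to 0.64, 36 positive). These correlations share the libraries and their scaling and are given as descriptions. HSPA9 followed the mean of the other members most closely, with r = 0.97 over all libraries and 0.77 within groups. CLPX (ENSDARG00000067796) followed it least, at 0.15, and HSPD1 reached 0.88 over all libraries and 0.19 within groups.

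The balance within the complexes was then measured as the ratio of RPKM values. HSPD1 per HSPE1 was 0.658 ± 0.0667 in 3y_swim, 0.684 ± 0.122 in 3y_control, 0.665 ± 0.182 in 1y_swim and 0.658 ± 0.0373 in 1y_control (SD, n = 5 each). The group means of this ratio between chamber and lid were thus close, while each gene's own level differed more than 2-fold between 3y_swim and 1y_swim. Between these 2 groups the ratio differed by 0.03 on the log2 scale (exact permutation test, 2-sided, p = 0.897). That does not show a constant ratio: single 1y_swim libraries ran from 0.417 to 0.854. Within groups the 2 genes had a Pearson r of 0.24. CLPX (ENSDARG00000029063) per CLPP was 1.76 ± 0.246 in 3y_swim and 1.42 ± 0.245 in 1y_swim, a log2 difference of 0.32 (exact permutation p = 0.0556). HSPA9 per HSPD1 was 2.60 ± 0.500 in 3y_control and 3.43 ± 0.362 in 1y_control, a log2 difference of -0.42 (exact permutation p = 0.0159). None of the 18 ratio comparisons passed after adjustment, with 0.214 as the smallest adjusted p. HSPD1 and HSPA9 were singled out from their 3y_swim and 3y_control values. Ratios with either gene in those groups are therefore not independent of the choice and are given as descriptions.

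By the correlation with the mean of the members over the 20 libraries, the genes most like them included ECSIT (r = 0.955), an assembly factor of respiratory complex I, MT-ND1 (0.944), a core subunit of that complex, and PHB2 (ENSDARG00000045297, 0.943). They were followed by IARS2 (0.937), the mitochondrial isoleucine tRNA synthetase, and DNM1L (0.936), which divides mitochondria. CHCHD4 (0.935), which folds proteins of the intermembrane space, and NDUFS8 (0.935), another subunit of complex I, came next. After the group means were removed, r was lower for each of these genes, from 0.60 (CHCHD4) to 0.72 (ECSIT). ECSIT averaged 11.2 CPM in 3y_swim, 17.5 CPM in 3y_control, 28.8 CPM in 1y_swim and 20.5 CPM in 1y_control.

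Markers of other cells differed between the same groups. Leukocyte markers, all 8 of which were tested and detected in every library, summed to 262 to 388 CPM in 3y_swim and 91.6 to 218 CPM in 1y_swim. With age among fish that swam 6 of 8 rose, where 3010 of 17025 genes were called in either direction, 1717 of them lower. Across the 20 libraries the mean of the members had r = -0.83 with the leukocyte markers and 0.92 with the mitochondrially encoded genes. Its r was 0.00 with the fast-fibre, -0.2 with slow-fibre and 0.6 with exocrine pancreas markers. All these r values pool the 4 groups and so in part restate the differences between group means. Of 9 tested slow-fibre markers, 1 fell in 3y_swim relative to 1y_swim by edgeR's quasi-likelihood test (mb, -1.97, adjusted p = 0.0127). Log2 changes of 5 of the 9 were positive. Mitochondrially encoded genes took 9.28% ± 0.766 of counts in 3y_swim, 11.6% ± 2.24 in 3y_control, 14.6% ± 0.973 in 1y_swim and 13.0% ± 2.11 in 1y_control. What part these differences have in the lower members was not tested.

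**Figure D4:**
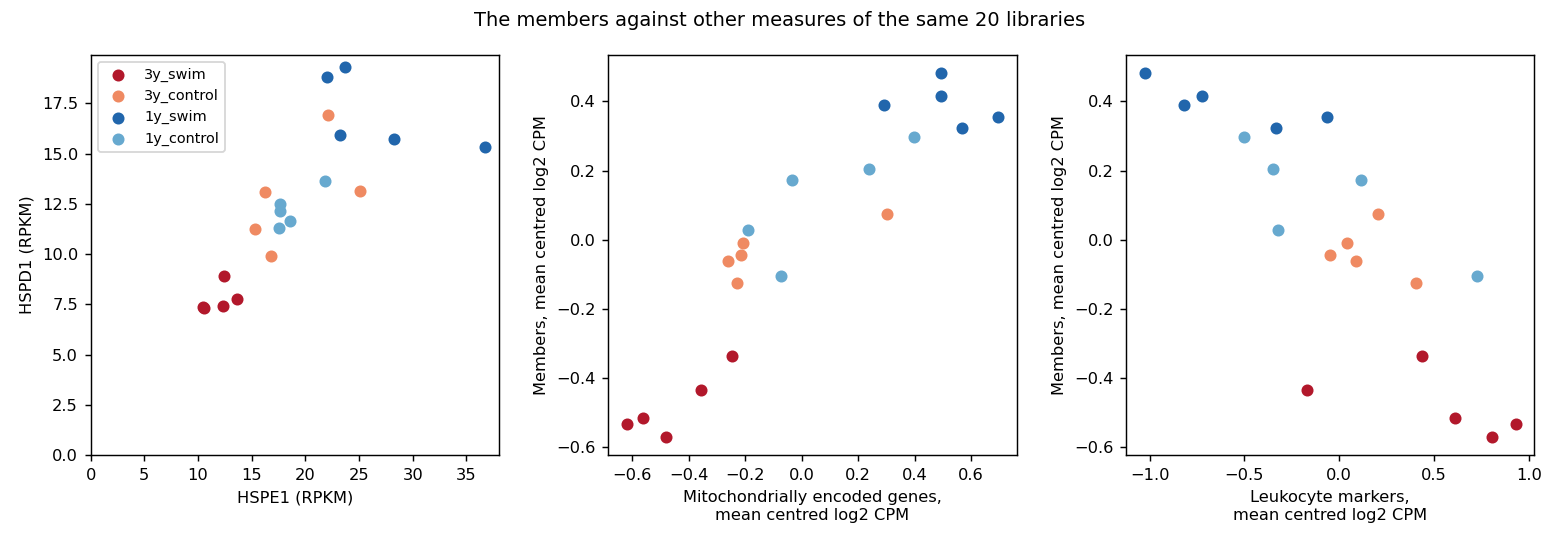
Left, HSPD1 against HSPE1 in RPKM; centre and right, the mean of the 11 members against that of the mitochondrially encoded genes and of the leukocyte markers, as log2 CPM centred over the 20 libraries; each point is 1 library, coloured by group. The 3-year swim-tunnel libraries lie lowest on the member axis, from -0.57 to -0.34, and the 1-year swim-tunnel libraries highest, from 0.32 to 0.48.

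Pancreas markers were highest in 1y_swim, and skin markers were high in single libraries of 2 groups. Exocrine pancreas markers summed to 1.94 to 13.6 CPM in 3y_swim, 2.80 to 23.6 CPM in 3y_control, 33.6 to 224 CPM in 1y_swim and 2.23 to 14.4 CPM in 1y_control. In 3y_swim relative to 1y_swim 11 of 11 tested fell, where 10.1% of all genes were called lower. In 1y_swim relative to 1y_control 10 of 11 rose, where 0.793% of all genes were called higher. Epidermis markers ranged over 91.4 to 1920 CPM in 3y_swim, 92.4 to 370 CPM in 3y_control, 86.6 to 267 CPM in 1y_swim and 92.2 to 3470 CPM in 1y_control, with group medians of 117 to 222 CPM and none of the 10 tested called. Without the 3 libraries with the highest skin scores 8 of 11 members fell in 3y_swim relative to 1y_swim, with a median of -0.80. In that fit 1429 of all genes were called in either direction, against 3010 with all 20 libraries. The part of the pancreas markers in the members' values was not tested.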

How the data were processed

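Muscle RNA of 20 samples was turned into libraries with a TruSeq RNA kit (v2), per the labels' protocols. Raw counts per Ensembl gene were deposited; per the submitters' processing notes the tools were bcl2fastq 1.8.4, STAR 2.4.1d and featureCounts 1.4.6-p4, with the build GRCz10. The annotation and the strand and multimapping settings are not given in the sources used here. The values of a further deposited table, named as RPKM, were read as a score: its library totals run in turn down the table (implied gene lengths then varied with a coefficient of variation of 3.46e-05, against 0.130 with own totals, over 4382 genes with at least 200 counts in every library). It served for gene lengths, and RPKM was recomputed from the counts.

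Counts were fitted with edgeR 4.0.16 (limma 3.58.1, R 4.3.3): TMM factors, filterByExpr, a robust quasi-likelihood fit of 4 groups, contrasts, Benjamini-Hochberg over 17025 genes, called below 0.05. DESeq2 1.42.0 was an alternative. Log2 CPM used a prior count of 2. Libraries are numbered within groups in the order of their records. The fit was tested on simulated data for the age effect with exercise. Of 100 genes changed by 1 on the log2 scale 72 were recovered, and of 100 changed by 2, 94 were. A gene that was not called may therefore still differ. Alternatives were RLE factors, library totals, no filter, fits of the compared groups alone and libraries left out. The 40 pairs of libraries within groups differed by far more than sampling noise (chi-square per degree of freedom 42.9 to 250). Each library was treated as 1 sample, although these values do not show that each came from a separate fish.

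Members and lists were chosen with earlier results of these data known. Of 179 names in the lists, 163 matched a row. All members are named; of each other list, per comparison, up to 4 called genes by smallest adjusted p, otherwise the 2 with the smallest p. The 8 genes most correlated with the members were also to be named; genes that are not reported here were left out; VDAC1, HTRA2, atf5a and atf5b were named after their values were seen.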

Additional observations from a re-analysis of the deposited data

Results flagged for a closer look

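In 5 of 44 sets of 5 libraries (11 members in 4 groups), the highest library stood apart from the others by Dixon's test; chance alone flags about 1 in 20 such groups. These were HSPD1 in 3y_swim 5 at 25.6 CPM, HSPA9 in 3y_control 1 at 193 CPM, GRPEL1 in the same library at 15.9 CPM, TRAP1 in 3y_control 3 at 30.4 CPM and HSPE1 in 1y_control 4 at 39.5 CPM. Each was above its group. HSPA9 and GRPEL1 stood out in the same library, 3y_control 1. HSPE1 (45.4 CPM), CLPP (19.5 CPM) and CLPX (ENSDARG00000029063, 45.15 CPM) also had their highest 3y_control value there, and the remaining members did not. Mitochondrially encoded genes took 15.2% of its counts, the largest share in 3y_control.

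The difference of the swim effect between the ages is given as a description for 5 members called in the interaction: HSPE1 at -1.21, HSPD1 at -1.20, TRAP1 at -0.99, GRPEL1 at -0.97 and HSPA9 at -0.93 on the log2 scale (3-year minus 1-year effect). These values hold the contrast that led to the choice of the genes and are no test. CLPP, at -0.81, was not called, although all its 3y_swim libraries lay below the 3y_control mean and all its 1y_swim libraries above the 1y_control mean. The same held for DNAJA3, at -0.63, which was not called either.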

How the results depend on the processing

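No result changed direction while called, and no paired analysis was possible because the labels give no replicate numbers. In the age effect with exercise, leaving out 1 library kept 9 to 10 members lower, with medians of -1.13 to -0.87. Scaling by library totals gave -0.78 there (7 members fell; all genes 0.29), and leaving out the 3 libraries with the highest skin scores gave -0.80 (8 fell). In the swim effect at 1 year, 0 to 1 member rose without 1 library (median 0.23 to 0.42), 3 rose with DESeq2, and library totals gave 1 that fell and a median of -0.02 (all genes -0.40). In the swim effect at 3 years, 0 to 2 fell without 1 library (median -0.55 to -0.35), 4 with DESeq2, 1 with library totals, and 0 with no filter on low counts, with only the libraries compared, or without the 3 skin-rich, the 2 nerve-rich or the 2 lowest-TMM libraries. In the age effect without exercise, 0 to 1 fell without 1 library (median -0.17 to -0.03) and 1 with DESeq2. In the interaction, 0 to 5 fell without 1 library (median -0.87 to -0.68), 6 with DESeq2, 0 with library totals (median -0.51; all genes 0.29) or without the skin-rich or nerve-rich libraries, and 1 with no filter or without the lowest-TMM libraries. The cause was not tested. Over all genes the calls ranged from 0 to 1748 (194 as reported) for the swim effect at 1 year, 1 to 107 (12) at 3 years, 9 to 720 (203) and 1429 to 3816 (3010) for age without and with exercise, and 2 to 407 (57) for the interaction. The lowest depth behind a value was 159 counts, for CLPX (ENSDARG00000067796) in 1y_swim 3.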
